A study of Homo sapiens with 2 samples.

Results

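The cells compared here were 2115 cells of UMUC3, a human bladder carcinoma line, that carried at least 2 unique molecular identifiers (UMIs, counted transcript molecules) of the long noncoding RNA TMEM132D-AS1 and 0 of MAN1A1, which encodes a Golgi mannosidase. They made up 206 of 4385 cells in the control library (4.70%, exact binomial 95% interval 4.09 to 5.37) and 1909 of 2672 cells in the library with a knockdown of GANAB (71.4%, 69.7 to 73.2), where a cell was a barcode with at least 15000 UMIs and at most 20% of them from mitochondrial genes. Cells of this kind are called subclone-like below, a working name for a minority of control cells that carried marks common in the knockdown library. The members were thus chosen by the measured counts of TMEM132D-AS1 and MAN1A1, a pair that came from earlier results of these data, so their levels and the shares above are description and support nothing.

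UMUC3 cells labelled control or GANAB knockdown had been placed in the bladders of C57 nude mice, which lack mature T cells but keep innate immune cells, and grown there for 14 days before single-cell capture with 10x Genomics 3' v3 chemistry. Each group is 1 library of about 10000 loaded cells. The cell line, host, site and time were thus the same in both groups, and the labels name no other allele or agent. The labels do not say how GANAB was lowered, how many mice gave cells or whether either culture was a single clone. Since a group is 1 library, differences have no replicate check and no p-values are given, and all intervals cover counting error only. Higher and lower compare these 2 libraries. Below, control and knockdown cells are the subclone-like cells of each library unless called main control cells, and in a pair of levels the control comes first.

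GANAB codes for the alpha, catalytic chain of glucosidase II, which removes glucose residues from newly attached N-glycans in the endoplasmic reticulum (ER), and PRKCSH codes for the beta chain. Glycans with a single glucose left bind the lectin chaperones calnexin and calreticulin, which hold glycoproteins in a folding cycle until the enzyme removes that glucose. Type I interferons act through their receptor and STAT factors on genes whose promoters often carry an interferon-stimulated response element, while enzymes of sterol synthesis are controlled together by SREBP transcription factors that leave the ER when sterols are low.

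Subclone-like cells held a median of 48920 UMIs and 6113.5 genes in the control library and 40760 UMIs and 5613 genes in the knockdown library, and their UMIs summed to 10795061 and 95069684. No barcode was a subclone-like cell in both libraries, and 4 subclone-like knockdown cells shared a barcode with a called control cell. Of 12 genes listed as UMUC3 markers, 9 reached 10 CPM (UMIs of a gene summed over cells, per 1000000 UMIs of those cells) in each set, with EPCAM at 0 in the control set. Markers of other cell types were low. The 8 T and NK cell markers summed to 0 CPM in control cells and 0.0526 in knockdown subclone-like cells, and the 4 B cell markers to 0.834 and 0.926. The 8 fibroblast markers summed to 39.3 and 17.3 with DCN, LUM and DPT at 0 in both, and the 8 macrophage markers to 41.1 and 25.1, nearly all from CD68. Endothelial markers (104 and 95.4) came almost wholly from EGFL7 and neutrophil markers (61.0 and 25.4) from G0S2. Doublets were not removed.

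The subclone-like cells of both libraries were near each other in some genes that the rule did not use and apart in others. These genes come from a list made from earlier results of these data, of which 4 of 8 measured members were lower in knockdown than in control subclone-like cells by the rule of size given below and none was higher. The lower ones were MME (31.2 and 4.80 CPM), TMEM158 (184 and 78.4), VGF (39.3 and 25.1; not with phases matched) and DSE (20.9 and 12.3). FAM133A was at 166 CPM in control cells and 132 in knockdown subclone-like cells, beside 13.5 in the 3021 main control cells, which had 0 TMEM132D-AS1 and at least 1 MAN1A1 UMI. The axon guidance factor SEMA3A stood at 58.5 and 63.4 beside 4.53, and CDH2, which encodes N-cadherin, at 2.50 and 1.16 beside 43.5. SPANXB1, a cancer-testis gene, was at 224 and 247 beside 0.381, yet its UMIs came from 29.6% of control and 23.2% of knockdown subclone-like cells. TMEM132D-AS1 itself, which lies antisense within TMEM132D, was at 157 and 177 CPM with a median of 7 UMIs per cell in each set. Just inside the threshold, with 2 or 3 UMIs, were 34 control cells with GANAB at 132 CPM and 326 knockdown cells at 39.0. Just outside it, with 1 UMI and no MAN1A1, were 23 control cells at 125 and 112 knockdown cells at 42.0.

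GANAB (ENSG00000089597; GRCh38 chromosome 11, 62624826 to 62646726), the targeted gene, was lower in the subclone-like cells of the knockdown library. Its level was 133 CPM in control cells (1433 UMIs; Poisson 95% interval 126 to 140) and 37.8 in the knockdown set (3593 UMIs; 36.6 to 39.0), 3.51-fold lower. The log2 ratio, knockdown over control, was -1.81 (95% interval -1.90 to -1.72, exact conditional binomial). Main control cells had GANAB at 125 CPM, so the 206 control subclone-like cells were not lower than the main control cells. With each cell thinned to 15000 UMIs, a GANAB UMI was found in 83.0% of control (77.2 to 87.9) and 41.3% of knockdown (39.1 to 43.6) subclone-like cells. The median control cell had 122 CPM and the median knockdown cell 30.3, and the distributions overlapped. GANAB RNA in the barcodes of at most 100 UMIs, which hold free RNA, was at 101 and 27.2 CPM. PRKCSH was at 75.3 CPM in control cells and 45.6 in knockdown cells, a log2 ratio of -0.72 (-0.83 to -0.61).

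**Figure D1:**
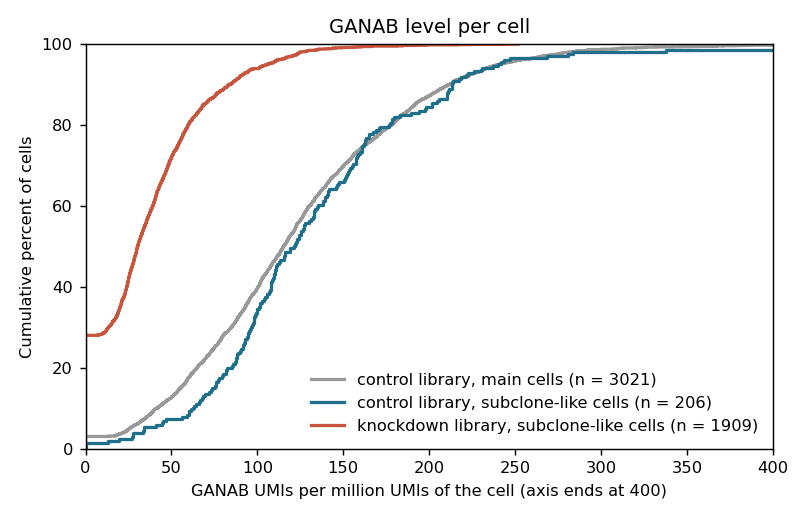
Cumulative percent of cells (vertical axis) by GANAB CPM of the cell (horizontal axis) in main control cells, control subclone-like cells and knockdown subclone-like cells. The 2 control curves lie close together, with a median of 122 CPM in the subclone-like cells, and the knockdown curve lies to their left with a median of 30.3.

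Across 7719 genes with at least 10 CPM in either set, 267 (3.46%) were higher and 357 (4.62%) lower in knockdown than in control subclone-like cells by a rule of size, a 1.5-fold or larger ratio whose interval excludes 1. The median log2 ratio over these genes was -0.10, and with the ratios scaled to a median of 0 the counts were 375 higher and 231 lower. Most differences were small, with a median ratio of 1.76-fold among the higher and 1.66-fold among the lower genes. At least 2-fold were 87 higher and 65 lower genes, and at least 4-fold were 16 and 5. Of the control subclone-like cells 46.6% (39.6 to 53.7) scored as S or G2M phase, and of the knockdown ones 27.9% (25.9 to 30.0), with every cell thinned to 15000 UMIs. Scores of 11 and 46 cells lay within 0.02 of the boundary, and such scores also read free RNA. The comparison was therefore repeated in cells scored as G1, where 301 of 7675 genes (3.92%) were higher and 332 (4.33%) lower, and in cells scored as S or G2M, where 178 of 7527 (2.36%) were higher and 251 (3.33%) lower. Knockdown cells were then weighted so that each phase gave the share of UMIs that it gave in control cells. In this setting, chosen after seeing the data, 176 of 7664 (2.30%) were higher and 179 (2.34%) lower. These included 167 of the 267 and 162 of the 357 genes, and a named gene or list that did not keep its call with phases matched is marked as such below.

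**Figure D2:**
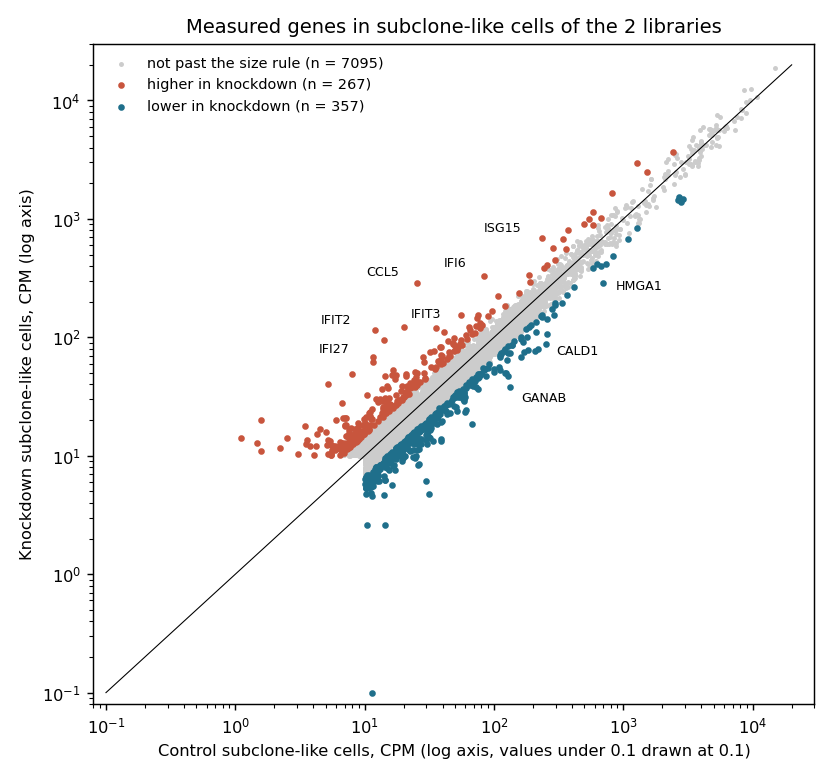
Summed expression of each measured gene in control (horizontal axis) and knockdown (vertical axis) subclone-like cells in CPM on log axes, with the 267 higher genes in red and the 357 lower genes in blue. CCL5, IFIT2, IFI27 and IFI6 lie above the diagonal, and GANAB, CALD1 and HMGA1 below it. The empty corner at low left comes from the minimum of 10 CPM in either set.

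Interferon-stimulated genes had the largest ratios upward among genes of at least 50 CPM in knockdown cells. At lower levels HAPLN1 and GPNMB, which are in none of the gene lists, had larger ones. Their log2 ratios were 3.64 (2.99 to 4.46) and 3.60 (2.85 to 4.62), resting on 17 and 12 control UMIs. Of 35 genes listed for the type I interferon response 29 were measured, of which 19 were higher, 1 was lower and 9 passed neither way, with a median log2 ratio of 1.08 beside -0.10 for all genes. With phases matched 26 members were measured, 14 were higher and 1 was lower, around a median of 0.71. In G1 cells the median was 1.00 and in S and G2M cells 0.68. Among the antiviral IFIT proteins, which bind foreign RNA, IFIT2 was at 12.04 CPM in control cells and 116 in knockdown subclone-like cells, a log2 ratio of 3.26 (3.02 to 3.53). IFIT1 stood at 14.0 and 94.3 (2.75, 2.52 to 2.995) and IFIT3 at 20.01 and 123 (2.62, 2.43 to 2.82). The related IFIT5 (15.1 and 19.5) did not pass the rule. Reads of related copies, here as in the IFI, HLA and CXCL families, may be split between them.

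The remaining members differed widely in size. IFI27, a small mitochondrial protein induced by interferon, stood at 11.7 and 68.4 CPM (2.54, 2.30 to 2.82), and BST2, which tethers budding virions to the cell, at 11.6 and 62.1 (2.42, 2.17 to 2.69). IFI6 was at 83.1 and 328 (1.98, 1.89 to 2.08), and ISG15, a ubiquitin-like modifier, at 234 and 696 (1.57, 1.52 to 1.63). The 2-5A synthetase family ranged from OASL (7.97 and 49.0) through OAS2 (3.06 and 10.3) and OAS1 (12.7 and 28.5) to OAS3 (25.7 and 28.8), which was not past the rule. IFI44L (1.48 and 12.8) was the member with the lowest control level, and with phases matched IFI44L, OAS2 and HERC6 were below the 10 CPM minimum. IFI44 (62.0 and 96.4) differed less than these, and it was at 8.12 in main control cells. SAMD9 (40.2 and 60.9) and SAMD9L (17.0 and 27.0) were not called with phases matched. IFITM3, which blocks virus entry, was at 938 and 820 and not past the rule, and its relative IFITM2 was the lower member, at 29.6 and 17.8. Other members past the rule were XAF1, HERC5, HERC6 and DDX60, and those past it in neither direction included IFI35, ISG20, USP18, PARP9, PARP14 and LGALS3BP.

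The promoters of 4 of these genes are shown because 17 of the 23 list members found in a RefSeq promoter table (GRCh38.p14; from 250 bases before to 50 after the gene start) held the letters of the interferon-stimulated response element, GAAA, any 2 bases and GAAA, on either strand, 73.9% beside 996 of all 27305 promoters (3.65%). The share was 11 of 15 among the members that were higher and 6 of 8 among those that passed neither way, so the letters did not separate them. It was 17 of 194 (8.76%) among all genes that were higher, 7 of 259 (2.70%) among those that were lower and 180 of 6223 (2.89%) among all measured genes found. The 17 include the 11 higher members of the interferon list, so this share is not separate from theirs. A match describes the letters and is not a measured binding site. Each sequence runs 5′ to 3′ on the + strand, with every match in capitals, and holds 2 matches. They lie at chr1:78620198-78620497 (IFI44L), chr10:89392373-89392672 (IFIT1), chr10:89327747-89328046 (IFIT3) and chr14:94110486-94110785 (IFI27).
IFI44L: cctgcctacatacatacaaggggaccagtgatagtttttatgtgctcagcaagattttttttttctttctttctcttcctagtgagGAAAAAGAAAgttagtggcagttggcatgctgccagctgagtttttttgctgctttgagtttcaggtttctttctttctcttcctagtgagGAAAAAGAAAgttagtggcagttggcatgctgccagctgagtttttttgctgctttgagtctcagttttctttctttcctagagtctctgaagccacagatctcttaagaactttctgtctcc
IFIT1: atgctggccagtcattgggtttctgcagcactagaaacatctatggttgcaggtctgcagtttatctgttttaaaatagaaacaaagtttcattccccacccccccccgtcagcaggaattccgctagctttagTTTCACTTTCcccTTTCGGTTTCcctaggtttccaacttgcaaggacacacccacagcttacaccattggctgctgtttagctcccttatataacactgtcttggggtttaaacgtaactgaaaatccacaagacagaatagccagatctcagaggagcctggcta
IFIT3: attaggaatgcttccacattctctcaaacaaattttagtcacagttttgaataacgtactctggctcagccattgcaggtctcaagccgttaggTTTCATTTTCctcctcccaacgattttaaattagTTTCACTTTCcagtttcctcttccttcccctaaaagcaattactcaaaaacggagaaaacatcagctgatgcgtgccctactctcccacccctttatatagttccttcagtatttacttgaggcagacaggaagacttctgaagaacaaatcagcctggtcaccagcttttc
IFI27: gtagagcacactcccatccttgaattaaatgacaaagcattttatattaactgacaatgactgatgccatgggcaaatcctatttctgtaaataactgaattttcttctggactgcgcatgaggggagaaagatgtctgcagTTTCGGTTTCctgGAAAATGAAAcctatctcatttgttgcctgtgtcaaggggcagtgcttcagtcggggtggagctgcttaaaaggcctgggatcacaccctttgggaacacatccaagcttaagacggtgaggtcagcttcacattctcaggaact
In IFIT1 the matches began 116 and 103 bases before the gene start, and in IFI27 108 and 95 bases before it. The pairs of IFIT3 (156 and 122 bases) and IFI44L (164 and 73 bases) lay farther apart.

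CCL5, a chemokine that draws T cells and monocytes, had the largest ratio among genes of at least 50 CPM, at 25.3 CPM in control cells and 288 in knockdown subclone-like cells (log2 ratio 3.51, 3.34 to 3.69). In the control set 1 cell held 85.3% of its UMIs. Without the cell with the most CCL5 in each set, a setting chosen after seeing the data, the levels were 3.71 and 262 and the log2 ratio was 6.13. Leaving out 1 cell trims the 206 control cells more than the 1909 knockdown cells, where the top cell held 9.18% of the CCL5 UMIs. Ratios without the top cells are therefore not an even comparison. CCL5 was found in 2.91% of control and 23.8% of knockdown subclone-like cells, and at 15000 UMIs in 1.46% (0.301 to 4.197) and 17.1% (15.4 to 18.8), and the top 5% of knockdown cells held 92.0% of its UMIs there. Free RNA of the knockdown library was also rich in CCL5, at 250 CPM beside 3.23 in the control library. IFIT2 likewise had 49.2% of its control UMIs in 1 cell, and its log2 ratio without the top cells was 4.15.

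Interferon-high cells were few in both sets but a larger share of the knockdown set. At least 5 IFIT1, IFIT2 and IFIT3 UMIs among 15000 were found in 10 control (4.85%, 2.35 to 8.75) and 283 knockdown (14.8%, 13.3 to 16.5) subclone-like cells, beside 20 of 3021 main control cells (0.662%, 0.405 to 1.02). None of these UMIs was found in 69.4% of control and 53.9% of knockdown subclone-like cells and in 86.7% of main control cells. The top 5% of cells held 60.2% of the IFIT UMIs in the control set (11 cells) and 68.5% in the knockdown set (96 cells). Among cells with 0 IFIT UMIs in the thinned count, IFI6 averaged 42.4 CPM over 143 control cells and 170 over 1028 knockdown cells. The full counts of these cells still held IFIT1 at 3.05 and 6.89 CPM, IFIT2 at 2.29 and 3.12 and IFIT3 at 4.58 and 5.37. BST2 stood there at 5.21 and 21.2, IFI27 at 5.34 and 24.4 and CCL5 at 0.509 and 34.1. IFI44 (52.9 and 58.0) and SAMD9 (38.3 and 31.6) were close to each other in these cells. Free RNA of the control library held IFI6 at 48.2 CPM and that of the knockdown library at 280. In free RNA BST2 stood at 5.88 and 56.4, and IFI27 at 6.57 and 68.1. The part of free RNA in the levels of cells with 0 IFIT UMIs in the thinned count was not tested. Among cells with at least 5, IFI6 was at 694 and 924. CCL5 stood there at 817 and 1751, where the control value rests mainly on the 1 cell that held 85.3% of the CCL5 UMIs of its set.

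A smaller share of the machinery upstream of interferon responses passed the rule than of the type I interferon list. Among all measured genes 3.46% were higher and 4.62% lower. Of the 16 measured genes of RNA sensing and interferon signalling, 3 were higher and none lower, with a median of 0.11. DDX58, which encodes the RNA sensor RIG-I, was at 24.5 CPM in control cells and 50.6 in knockdown cells, and IFIH1, which encodes MDA5, at 7.23 and 20.7. The adaptor MAVS (32.1 and 27.7), the kinase TBK1 (17.6 and 14.3) and the receptor chain IFNAR1 (31.4 and 34.5) did not pass the rule. In the MHC class I list 1 of 17 was higher, the shared light chain B2M at 1532 and 2479 CPM, and it was not called with phases matched. HLA-B stood at 463 and 618.

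Of 13 NF-kB targets and chemokines, 4 were higher and 1 lower. All 4 were CXC chemokines that attract neutrophils: CXCL1 was at 35.4 CPM in control cells and 119 in knockdown subclone-like cells (log2 ratio 1.75, 1.61 to 1.90), CXCL3 at 56.0 and 154 (1.46, 1.34 to 1.58), CXCL8 at 38.4 and 82.6 and CXCL2 at 73.3 and 146. Among knockdown cells CXCL1 was at 123 CPM in cells with 0 IFIT UMIs in the thinned count and 121 in cells with at least 5. The monocyte attractant CCL2 was lower, at 40.4 and 24.3, but not with phases matched. NFKBIA, the inhibitor induced by NF-kB, stood at 494 and 565 and TNFAIP3 at 19.1 and 26.7, neither past the rule.

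**Figure D3:**
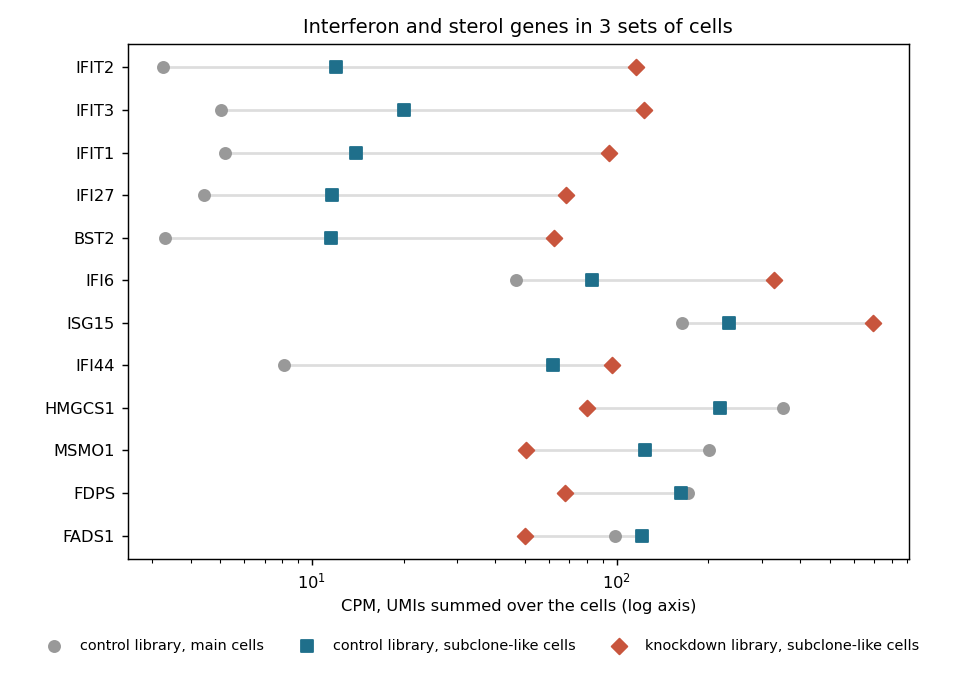
CPM on a log axis of 8 interferon and 4 sterol or fatty acid genes in main control, control subclone-like and knockdown subclone-like cells. For IFIT1, IFIT2 and IFI27 the control subclone-like cells lie between the other sets, and for IFI44 they lie nearer to the knockdown cells. HMGCS1 and MSMO1 run in the opposite order. FADS1 is highest in the control subclone-like cells, at 121 CPM beside 98.7 in main control cells.

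Sterol synthesis genes were lower in knockdown subclone-like cells along most of the pathway. Of 18 measured members (20 listed), 13 were lower, 0 were higher and the median log2 ratio was -0.88. The median was -0.71 in G1 cells, -0.93 in S and G2M cells and -0.75 with phases matched, where again 13 were lower, 12 of them among the first 13. At the entry of the pathway, ACAT2, which makes acetoacetyl-CoA, was at 128 CPM in control cells and 46.7 in knockdown cells, and HMGCS1, the synthase of the next step, at 219 and 80.2 (log2 ratio -1.45, -1.52 to -1.38). Of the mevalonate steps, MVK (16.5 and 8.27), MVD (17.1 and 7.65) and the farnesyl diphosphate synthase FDPS (163 and 67.8) were lower, while PMVK (51.3 and 52.4) and IDI1 (82.6 and 60.6) were not past the rule. Of the later steps, SQLE (99.4 and 51.4), MSMO1 (123 and 50.4) and DHCR7 (57.8 and 33.2) were lower.

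The control subclone-like cells lay between the main control and the knockdown cells for some of these genes. HMGCS1 was at 351 CPM in main control cells and MSMO1 at 201, whereas FDPS was at 171 and so close to the 163 of the control subclone-like cells. In cells with 0 IFIT UMIs in the thinned count the levels of HMGCS1 were 231 and 94.0. The free RNA of the control library held HMGCS1 at 385 CPM and that of the knockdown library at 86.2.

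SREBP regulators and fatty acid genes split by direction. Of 18 measured, 9 were lower and 3 higher (median -0.60), and with phases matched all 12 kept their call. Lower members included the sterol carrier STARD4 (25.01 and 9.87 CPM), the fatty acid desaturases FADS1 (121 and 50.1; log2 ratio -1.27, -1.36 to -1.18) and SCD (74.7 and 37.0), the fatty acid synthase FASN (26.6 and 13.8), INSIG1, ELOVL6 and ACSS2. The transcription factor SREBF2 was also lower, at 27.3 and 13.8, while SREBF1 was higher, at 9.63 and 18.4. MYLIP, a ubiquitin ligase induced by sterol sensors, was higher (8.43 and 16.8), as was INSIG2 (7.13 and 11.8). None of the 13 cholesterol synthesis promoters found in the RefSeq table held the sterol regulatory element letters TCACNCCAC on either strand of this window, which 313 of 27305 promoters did (1.15%). Only these exact letters were searched for, so elements with other letters would be missed. With so low a share over all promoters, 0 of 13 says little.

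Most listed genes of the folding machinery that glucosidase II serves did not pass the rule. Of 16 measured genes of the ER glucosidase and calnexin cycle list, 3 were lower and 0 higher, and the median was -0.11, close to that of all genes. These were GANAB, PRKCSH and CALR, the soluble lectin chaperone calreticulin, at 413 CPM in control cells and 268 in knockdown cells. CALR was not called with phases matched. Its membrane-bound relative CANX (413 and 349), the folding sensor UGGT1 (22.8 and 20.6) and MOGS, which encodes glucosidase I (13.8 and 13.9), did not pass the rule. PRKCSH and CALR lie in a stretch of chromosome 19 in which 7 of 20 neighbouring measured genes, themselves included, were lower and none higher. Among all measured genes 4.62% were lower and 3.46% higher, and a part of the stretch in these levels was not tested. Among 20 ER chaperones, which the unfolded protein response induces, HSPA5 alone was lower (737 and 419; log2 ratio -0.81, -0.85 to -0.78), with a list median of -0.13. HSP90B1 stood at 565 and 452 and MANF at 106 and 71.6.

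Calls among glycan synthesis genes are set beside the shares over all measured genes, 3.46% higher and 4.62% lower. None of 12 oligosaccharyltransferase subunits passed the rule (median -0.05), with STT3A at 63.1 CPM in control cells and 49.96 in knockdown cells and OST4 at 410 and 593. Of 17 precursor assembly genes ALG3 alone was lower (61.0 and 37.6; not with phases matched), around a median of -0.30. Of 13 Golgi processing genes, from which MAN1A1 is left out, GMDS, which starts GDP-fucose synthesis, was lower (22.4 and 14.3), and so was the sialyltransferase ST3GAL4 (19.0 and 12.2), the latter not with phases matched. UBE2J1 was the 1 lower member of 17 genes of ER-associated degradation (60.6 and 39.8; not with phases matched). In the integrated stress response 2 of 14 were higher, ATF3 (20.9 and 32.9; not with phases matched) and NUPR1 (11.4 and 24.7), while ATF4, its central factor, stood at 158 and 111.

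**Figure D4:**
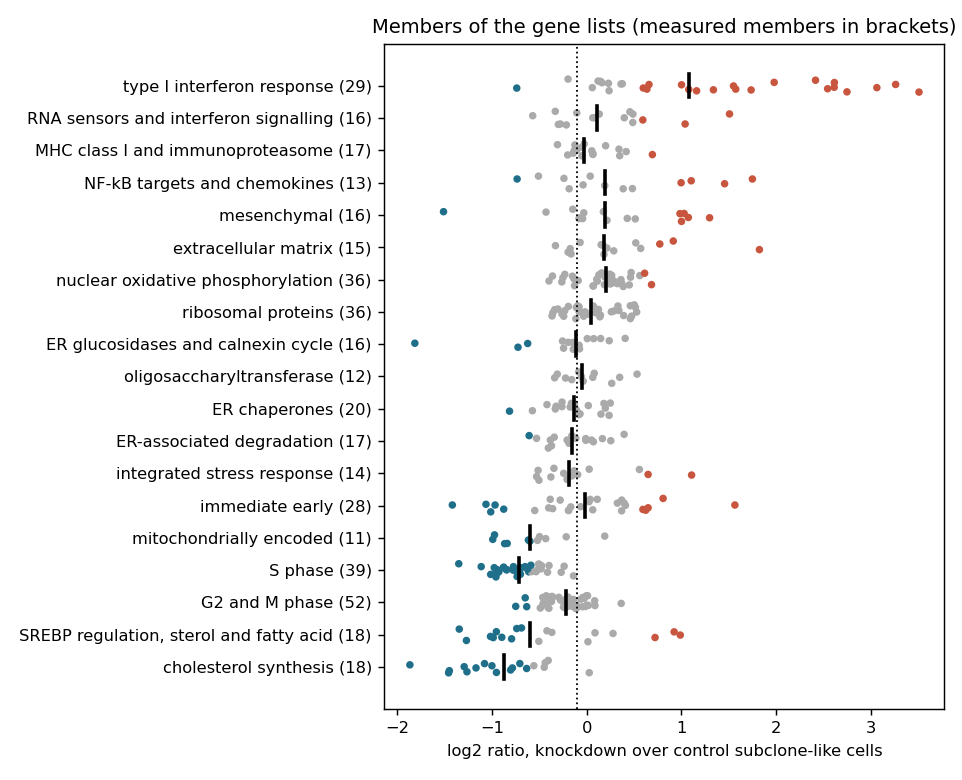
Log2 ratio of knockdown over control subclone-like cells (horizontal axis) for each measured member of 19 gene lists, in red where higher, blue where lower and grey where past the rule in neither direction. Black bars are list medians, and the dotted line is the median of all measured genes, -0.10. The type I interferon list lies farthest right (1.08) and the cholesterol synthesis list farthest left (-0.88).

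Replication genes were lower over all subclone-like cells, with smaller gaps once cells of like phase were compared. The S phase list had 27 of 39 measured genes lower and 0 higher (median -0.71), with PCNA, the sliding clamp, at 255 CPM in control cells and 142 in knockdown cells, MCM7 of the replicative helicase at 126 and 63.9 and the licensing factor CDC6 at 34 and 13.4. Within G1 cells the median was -0.26, within S and G2M cells -0.40, and with phases matched -0.27 with CDC6 as the 1 member lower. The list also set the phase scores, so these values are not independent of them. Of 52 G2 and M phase genes 3 were lower, UBE2C (677 and 403), NDC80 and KIF11, and none with phases matched. The linker histone gene HIST1H1D was at 59.3 and 23.4 (log2 ratio -1.34, -1.47 to -1.21). Its log2 ratio was -0.90 with phases matched and -0.85 in S and G2M cells, and in G1 cells it was below the 10 CPM minimum.

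**Figure D5:**
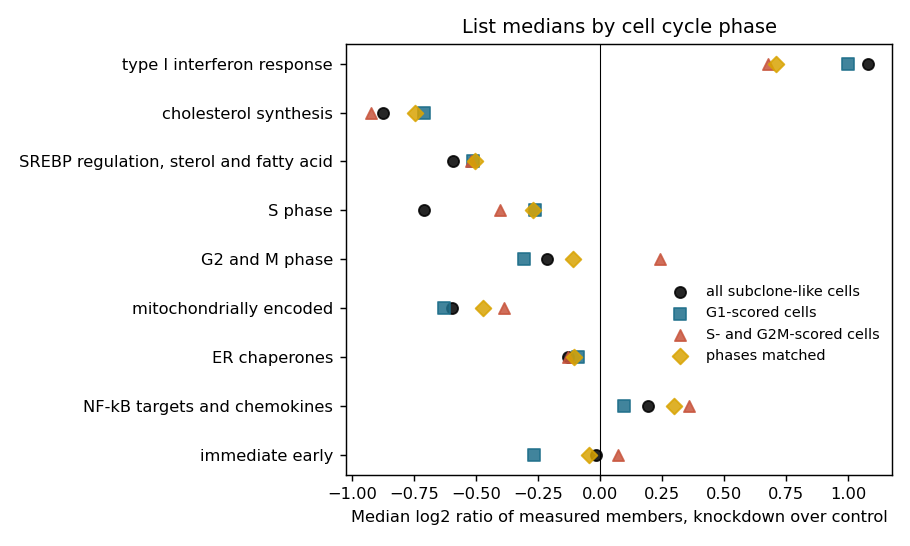
Median log2 ratio of the measured members of 9 lists over all subclone-like cells, G1-scored cells, S- and G2M-scored cells, and with phases matched. The S phase median moves from -0.71 to -0.27 with phases matched, while those of cholesterol synthesis (-0.88 and -0.75) and of the type I interferon list (1.08 and 0.71) stay on their side of 0.

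Mesenchymal genes passed the rule in both directions, mostly as higher. Of 16 mesenchymal genes 5 were higher and 1 lower. The list median was 0.20, and -0.041 among genes of at least 50 CPM. TPM1, a tropomyosin, was at 341 CPM in control cells and 676 in knockdown cells, the matrix protein SPARC at 107 and 226, S100A4 at 12.3 and 30.4, TGFBI at 9.91 and 20.3 and the transcription factor SNAI1 at 6.48 and 13.1. CALD1, which encodes the actin-binding caldesmon, was lower, at 251 and 88.1 (log2 ratio -1.51, -1.57 to -1.45). VIM, the intermediate filament vimentin, was at 4157 and 5937 and did not pass the rule. Of 15 extracellular matrix genes, the collagen genes COL5A1 (4.26 and 15.3), COL4A2 (7.50 and 14.2) and COL6A1 (9.45 and 16.2) were higher and none was lower. Of 17 integrins and adhesion receptors, L1CAM was higher (3.61 and 13.7), and ITGB5 (46.4 and 28.4) and SDC1 (22.5 and 13.1) were lower, SDC1 not with phases matched.

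Of 28 immediate early genes 5 were higher and 5 lower over all phases, 2 higher and 6 lower with phases matched, and 1 of 27 higher and 10 lower in G1 cells, with a G1 median of -0.27. Among the lower were DUSP6, an ERK phosphatase, at 109 CPM in control cells and 55.6 in knockdown cells, EGR1 at 168 and 91.5, SPRY4 at 39.8 and 19.8 and ETV4 at 14.2 and 6.81, and all 4 kept their call with phases matched. CTGF, a matricellular target of YAP, was at 206 and 77.2, but 1 control cell held 33.5% of its UMIs, and without the top cells it stood at 137 and 74.6. KLF4 (16.2 and 48.1) and DUSP4 (15.7 and 27.5) were higher, and FOS (363 and 559), KLF2 (122 and 185) and ATF3 were higher over all phases but not with phases matched. G0S2, also a listed neutrophil marker, was at 60.9 and 24.4 CPM. It was found in 9.71% of control and 5.92% of knockdown subclone-like cells, but at 15000 UMIs in 4.37% (2.02 to 8.13) and 3.46% (2.68 to 4.38), intervals that overlap. A single cell held 39.6% of its control UMIs, and in G1 cells its log2 ratio was 2.67, the other way.

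Of the mitochondrially encoded genes 6 of 11 were lower (median -0.60), with MT-CO1, a subunit of cytochrome oxidase, at 2713 CPM in control cells and 1518 in knockdown cells and MT-CO3 at 2781 and 1400.2. With phases matched 4 were lower. The median share of UMIs from mitochondrial genes was 1.75% in control and 0.923% in knockdown subclone-like cells. Of 36 nuclear oxidative phosphorylation genes 2 were higher, NDUFA13 (255 and 410) and ATP5ME (295 and 451), and none lower, and none of 36 ribosomal protein genes passed the rule. Of 22 hypoxia and glycolysis genes 4 were lower, among them NDRG1 (17.0 and 8.32), ADM (25.8 and 12.5) and the glucose transporter gene SLC2A1 (22.1 and 14.3). Of 15 NRF2 and redox genes 3 were lower, HMOX1 (29.2 and 17.7; log2 ratio 0.074 in S- and G2M-scored cells), TXNRD1 (366 and 226) and GCLM (66.2 and 42.3), the last not with phases matched. Single members were lower in the MYC target and heat shock lists, and in neither list with phases matched. In the list of growth factor receptors and ligands none of 16 passed the rule.

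Other genes named for the size of their ratio belonged to no group above. HMGA1, an architectural chromatin protein, was at 698 CPM in control cells and 289 in knockdown cells (log2 ratio -1.27, -1.31 to -1.23), beside 799 in main control cells. DNTTIP1, a subunit of a histone deacetylase complex, was at 259 and 108 (-1.27, -1.33 to -1.21). The transcription factor gene NFATC2 was at 16.5 and 52.5 (1.67, 1.46 to 1.90) and CRIP2 at 41.4 and 111 (1.43, 1.29 to 1.57). All of these kept their call with phases matched. Of 8 measured genes listed because earlier results tied them to the subclone-like cells, 4 were lower and 0 higher: MME (31.2 and 4.80), TMEM158 (184 and 78.4), DSE (20.9 and 12.3) and VGF (39.3 and 25.1), the last not with phases matched. In the p53 target list 1 of 11 was higher, BBC3, and in the lysosome list 1 of 22 was higher, GAA, and 1 lower, CTSA, none of them with phases matched. None of 5 epithelial and keratin genes passed the rule.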

How the data were processed

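Raw UMI counts per gene and barcode were deposited by the authors, as matrices of 6794880 listed barcodes and 33538 human genes per library, written with Cell Ranger 3.1.0 against GRCh38 per the submitters' processing notes. Counting settings, the strand rule and any mouse reference were not given in the sources used here, so mouse transcripts may be lost or counted under human genes. The 2 libraries held 239857346 (control) and 155064055 UMIs. The mitochondrial limit removed 1 and 2 barcodes. Doublets were not removed. The members, the 31 gene lists and 10 marker lists were chosen with earlier results of these data known.

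UMIs of the subclone-like cells were summed per library and divided by their total. Ratios add 0.5 counts to each sum and carry exact conditional binomial 95% intervals, shares Clopper-Pearson and single levels Poisson intervals. Values of 0 carry a floor of 3 counts over the set. PCR duplicates are removed by UMIs, and intervals cover counting error only. Phases were scored with scanpy 1.11.5 on cells thinned to 15000 UMIs (Python 3.11.15, numpy 2.4.6, scipy 1.17.1). On simulated counts for subclone-like cells (7525 genes), all 50 genes changed at each fold of 0.25, 0.5, 2 and 4 were called. Of 7325 unchanged genes 0 were called, and 95.3% of their intervals held the truth. The simulated counts were Poisson sums per set without spread between cells, with the changed genes drawn above the minimum level. They therefore check the arithmetic and say nothing of false calls from spread between real cells. The rule named GANAB, PRKCSH, the 12 genes per direction with the largest ratio at 50 CPM or more, and up to 4 members per list. Other genes were named after their values were seen. Some members that the rule named are not reported here. Gene positions come from GENCODE release 29, matched by identifier for 33456 genes. Alternatives changed the cell weighting, minimum level, scaling, cell limits, depth, phases and free RNA.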

Additional observations from a re-analysis of the deposited data

How the results depend on the processing

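GANAB stayed lower in knockdown subclone-like cells under all 15 alternatives, with a log2 ratio between -1.86 and -1.72, the latter with ratios scaled to a median of 0. The medians of the type I interferon list (0.68 to 1.98), the cholesterol synthesis list (-1.17 to -0.71), the S phase list (-0.85 to -0.26) and the ER chaperones (-0.21 to -0.03) kept their sign. The interferon median was 1.98 with genes of at least 50 CPM, 0.68 in S- and G2M-scored cells, 0.70 without the 5% of cells highest in IFIT1 to IFIT3 and 0.71 with phases matched, a setting chosen after seeing the data. The cholesterol median was -1.17 at 50 CPM, -0.71 in G1 cells and -1.04 with cells thinned to 15000 UMIs. The S phase median was -0.26 in G1 cells, -0.40 in S and G2M cells, -0.85 in thinned cells and -0.27 with phases matched.

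Counts of genes followed the minimum level, with 852 higher and 697 lower at 1 CPM and 83 and 114 at 50 CPM, where more or fewer genes were tested. Phases matched gave 176 and 179, thinned cells 564 lower, and scaling to a median of 0 gave 231 lower. For the other changes the cause was not tested. Directions reversed for the mesenchymal list (-0.041) and the extracellular matrix list (-0.26) at 50 CPM, for ribosomal proteins (-0.044) and G0S2 (2.67) in G1 cells, and for the G2 and M phase list (0.24) and HMOX1 (0.074) in S- and G2M-scored cells. Over 161 further results (26 list medians and 135 gene ratios, no counts of genes) and 15 alternatives, 1735 of 2415 values stayed within the counting interval of the value reported (for a list, the medians of its members' bounds), 674 moved outside it and 6 reversed. The 206 control cells limit the precision, and counts say nothing of variation between animals or cultures. No paired analysis was possible because each group is 1 library and the labels carry no replicate numbers.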

Other observations

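Genes with at least a 4-fold ratio below the 50 CPM limit for named genes, chosen after their values were seen, included several that set the control and knockdown subclone-like cells apart from each other. The noncoding RNA AL589678.1 (ENSG00000224935; GRCh38 chromosome 9, 12098660 to 12159147) had 124 UMIs, 11.5 CPM, in 13.1% of the 206 control subclone-like cells, and 0 among the 95069684 UMIs of the knockdown ones, at least 364-fold lower when the control level is taken as measured and set against a floor of 3 counts over the set. With the counting error of both sets, the upper bound of the log2 ratio is -8.19. Main control cells held 4 UMIs of it, 0.0261 CPM. MME, which codes for neprilysin, stood at 31.2 CPM in control cells and 4.80 in knockdown subclone-like cells, beside 166 in main control cells and 140 in the free RNA of the control library. CDH2, at 2.50 in the control subclone-like cells, was at 36.3 in the same free RNA. CALB2 (14.3 and 2.62), CITED4 (29.7 and 6.17) and KRT15 (10.4 and 2.59) were also lower in the knockdown cells. Main control cells held these 3 genes at 35.7, 25.7 and 24.5 CPM. They stood at 26.6, 22.1 and 26.4 in the free RNA of the control library and at 3.75, 3.90 and 6.09 in that of the knockdown library. The part of free RNA in their levels was not tested.

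HAPLN1, a hyaluronan link protein, was higher, at 1.57 CPM in control cells and 20.2 in knockdown subclone-like cells, while main control cells had 52.96. A HAPLN1 UMI was found in 0.971% of control and 7.12% of knockdown subclone-like cells at 15000 UMIs. GPNMB, a lysosomal glycoprotein, stood at 1.11 and 14.1, RETREG1, an ER-phagy receptor, at 3.43 and 17.8, IL32 at 6.67 and 27.8, and CDC42EP5 at 2.50 and 14.2. In main control cells IL32, like HAPLN1, was above both sets, at 36.9 CPM. GPNMB, RETREG1 and CDC42EP5 were there at 0.150, 1.45 and 0.313.

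Along the genome, 374 windows of 20 neighbouring measured genes had median log2 ratios from -0.42 to 0.29, with quartiles of -0.18 and -0.01. Of the 5 lowest windows, 4 lay on chromosome 20, which gave 12 of the windows. The lowest of all began with SDC4 and ended with ARFGEF2 (gene starts 45325288 to 48921890) and held DNTTIP1, UBE2C, SNX21, CTSA and ZNF335, its 5 lower genes, with 19 of 20 ratios below 0. Its median was -0.42 over all phases and with phases matched. Over all 247 measured genes of chromosome 20, 30 were lower and 6 higher, beside 4.62% lower and 3.46% higher among all measured genes. The median of chromosome 20 was -0.24, beside -0.06 for the same genes in control subclone-like over main control cells. On chromosome 19 the window from PRKCSH to STX10 (11435288 to 13144058), which holds CALR, ranked 9 from the lowest, with a median of -0.31, and -0.27 with phases matched.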
